A study of Mus musculus with 12 samples.

Results

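The 10 immediate early response genes Egr1, Fos, Fosb, Jun, Junb, Jund, Ier2, Ier3, Atf3 and Dusp1 were taken by symbol from a table of 23235 genes, and all 10 were found. They were followed through mouse spermatocytes, the germ cells that carry out meiosis, in 12 RNA-seq libraries in 4 groups of 3. Fluorescence-activated sorting had separated the leptotene/zygotene cells (LZ), in which homologous chromosomes begin to pair, from the pachytene cells (P), in which pairing is complete. Each stage came from WT mice and from Rnaseh1 knock-out mice (KO), all on the C57BL/6 strain background, and no treatment was labelled. Rnaseh1 encodes RNase H1, the enzyme that removes the RNA strand of R-loops. The labels used here gave neither the age of the mice nor the knock-out allele, its driver or the deleted part of the gene, and they did not say whether replicates came from separate animals, so that the p-values below measure only the spread between these libraries. Values were FPKM (fragments per length of transcript and per depth of the library) that the authors had scaled by ERCC spike-ins, synthetic RNAs added in known amounts, so a library can be higher or lower as a whole.

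Immediate early genes are transcribed within minutes of a signal, from transcription factors already bound and waiting at their promoters, and their short-lived mRNAs fall again as quickly. Fos and Fosb proteins pair with Jun, Junb or Jund to make the AP-1 transcription factors, Egr1 is a zinc finger transcription factor, and Atf3 is a stress-induced factor of the ATF/CREB family that can also pair with Jun proteins. Dusp1 is a phosphatase that switches off MAP kinases, the enzymes that carry the signal, while Jund is the family member that many resting cells already express.

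Immediate early promoters are known for docking sequences of signal-regulated factors. Those of Fos, Fosb, Junb, Atf3 and Dusp1 are printed because their letters hold the core of the cAMP response element (CRE), and Fosb, Junb and Atf3 passed the genotype test at pachytene while Fos and Dusp1 did not. Each sequence holds the 250 bases before the start of the gene on its own strand, from RefSeq on GRCm38.p6, matched by symbol. Capitals mark TGACG, the core of the CRE, which reads CGTCA in Atf3 because it lies on the opposite strand, the full CRE TGACGTCA in Dusp1, and the TATA box TATAAA in Fos.
Fos: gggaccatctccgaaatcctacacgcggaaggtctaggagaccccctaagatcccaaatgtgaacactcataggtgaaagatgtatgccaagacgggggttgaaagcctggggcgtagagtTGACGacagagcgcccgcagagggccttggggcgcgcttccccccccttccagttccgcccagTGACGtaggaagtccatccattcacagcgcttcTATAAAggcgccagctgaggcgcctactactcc
Fosb: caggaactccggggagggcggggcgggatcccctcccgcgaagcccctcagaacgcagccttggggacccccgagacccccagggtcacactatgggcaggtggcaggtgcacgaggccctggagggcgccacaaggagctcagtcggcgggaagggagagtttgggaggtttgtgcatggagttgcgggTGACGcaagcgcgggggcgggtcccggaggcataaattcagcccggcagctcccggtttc
Junb: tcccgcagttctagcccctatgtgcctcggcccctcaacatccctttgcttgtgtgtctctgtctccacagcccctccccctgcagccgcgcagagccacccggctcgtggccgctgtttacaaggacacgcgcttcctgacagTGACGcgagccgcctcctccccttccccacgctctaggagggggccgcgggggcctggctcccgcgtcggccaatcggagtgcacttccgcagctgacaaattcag
Atf3: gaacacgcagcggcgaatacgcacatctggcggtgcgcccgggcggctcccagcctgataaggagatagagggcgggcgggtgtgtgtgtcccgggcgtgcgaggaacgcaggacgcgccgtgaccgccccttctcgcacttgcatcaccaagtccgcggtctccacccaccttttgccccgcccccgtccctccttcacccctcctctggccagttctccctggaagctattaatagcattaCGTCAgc
Dusp1: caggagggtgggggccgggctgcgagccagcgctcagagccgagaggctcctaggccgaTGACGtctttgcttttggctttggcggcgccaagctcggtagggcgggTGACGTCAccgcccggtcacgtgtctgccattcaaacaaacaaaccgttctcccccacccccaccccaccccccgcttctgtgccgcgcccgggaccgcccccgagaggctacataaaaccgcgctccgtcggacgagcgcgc
The Fos window lies at chr12:85473640-85473889 on the plus strand, and Fosb at chr7:19310046-19310295, Junb at chr8:84978749-84978998, Atf3 at chr1:191183334-191183583 and Dusp1 at chr17:26508473-26508722 on the minus strand. Counted back from the start, Fos held TGACG at -129 and at -66 with TATAAA at -33, Fosb held TGACG at -60 and Junb at -106. Atf3 held it on the opposite strand from -7 to -3. Dusp1 held TGACG at -191 and the full CRE from -143 to -136.

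Of the 10 genes, 8 had a promoter in the RefSeq table, and Egr1 and Ier2 were without an entry. TGACG, searched on both strands, stood in 5 of the 8 windows (Fos, Fosb, Junb, Dusp1 and Atf3), against 17.8% of 32851 promoter windows of the same length. The full CRE, of which TGACG is a part, stood in 1 of 8 against 1.55%, and TATAAA in 1 of 8 against 12.4%. The AP-1 site TGANTCA was in 0 of 8 windows against 6.75%, and the CArG box, which serum response factor binds, in 0 of 8 against 1.47%. Only these patterns were searched, and only inside the windows. Letters that depart from a pattern, such as TGACATCA in the Jun window, and sequence farther from the start were not counted. Egr1 and Ier2 could not be searched. The counts of 0 therefore do not show that the promoters of these genes lack AP-1 or serum response factor sites. For Jund, Junb and Ier3 the stretch checked after the RefSeq start was not found in any GENCODE transcript of the gene. Their starts, with that of the printed Junb window, may therefore differ between annotations. A match of letters is a description of the sequence and does not show that a factor was bound there.

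Summed over all genes, the scaled libraries held more RNA signal at pachytene than at leptotene/zygotene, and the median log2 change over 15400 tested genes was 1.64 in WT and 2.29 in KO. Low values showed that 1 fragment was worth 0.599 to 1 times its value in WT LZ replicate 1 in the LZ libraries and 2.72 to 5.92 times in the pachytene libraries, so the LZ libraries counted small amounts more finely. Rnaseh1 itself did not fall in the libraries labelled KO by the test used below (adjusted p = 0.407 at LZ and 0.0638 at pachytene, limma): it was 16.1 to 20.5 in WT LZ, 11.0 to 18.3 in KO LZ, 51.7 to 56.8 in WT pachytene and 68.9 to 94.3 in KO pachytene. The deleted part of the gene is unknown, so these levels do not check the labels, and the groups are called KO-labelled throughout. Of 10 leptotene/zygotene markers in the table, 9 to 10 stood at 1 or more in every library of each group. Their sum was 1730.5 to 3368 at LZ and 8073 to 11422 at pachytene, so on this scale it was not higher in the LZ libraries. The sum of 9 pachytene markers was 1366 to 3575 at LZ and 28838 to 80197 at pachytene. Markers of somatic cells were also present: sums over 9 Leydig markers were 4.07 to 90.3 at LZ and 1381 to 8745 at pachytene, and those over 9 peritubular markers were 2.46 to 31.6 and 184 to 737. Blood markers summed to 2.51 to 47.9 at LZ and 175 to 915 at pachytene, endothelial markers to 0.403 to 3.74, and spermatogonial markers to 248 to 790 over all libraries, with Hsd17b3 and Lhcgr (Leydig) and Hbb-b1 (blood) at 0 in WT LZ. In such bulk libraries fewer cells of a type and less RNA per cell cannot be told apart.

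**Figure D1:**
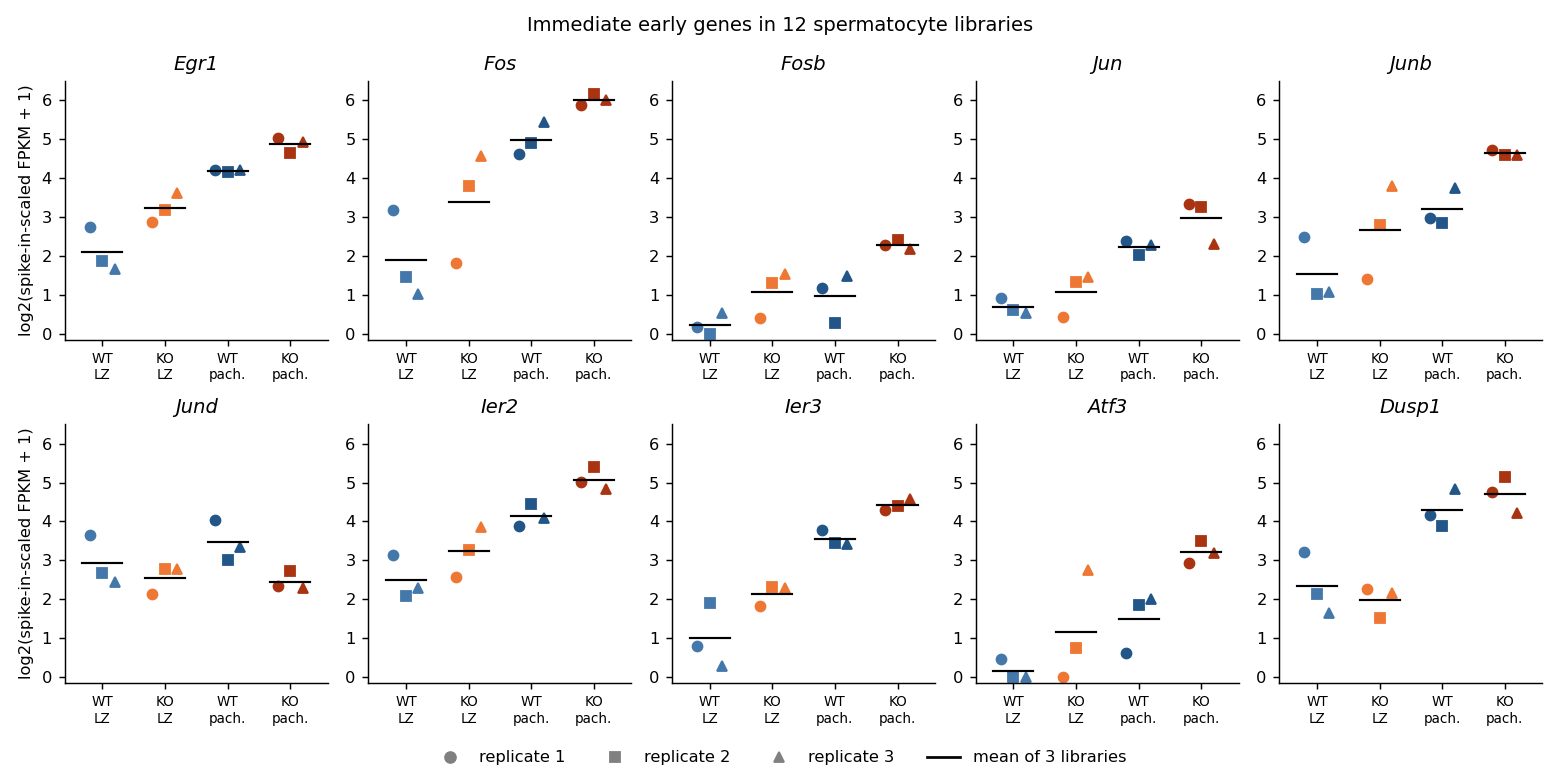
Level of each gene in every library, as log2(spike-in-scaled FPKM + 1) on the y axis, by group on the x axis, with points for libraries and a line for the group mean. Fos had the highest level in KO-labelled pachytene cells and Atf3 and Fosb were close to 0 in WT leptotene/zygotene cells.

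The order of the 10 genes changed between the groups, and Fos, the AP-1 subunit with the highest mean in 3 of 4 groups, stood clear of the next gene only in KO-labelled pachytene cells. In WT LZ cells Jund led with 7.14 ± 3.92 FPKM (SD, n = 3), followed by Ier2 at 4.95 ± 2.46 and Dusp1 at 4.62 ± 3.28. Each of these overlapped its neighbour, and from Jund down to Jun every neighbouring pair overlapped, so their order is not resolved. Only Jun, at 0.617 ± 0.233, lay apart from the gene after it, Fosb, and Atf3, listed at 0 in 2 of the 3 libraries, was last. In KO-labelled LZ cells Fos led with 12.6 ± 10.04, ahead of Ier2 and Egr1, and no neighbours were apart.

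In WT pachytene cells Fos (31.8 ± 9.55 FPKM), Dusp1 (19.4 ± 7.13), Egr1 (17.2 ± 0.402) and Ier2 (16.8 ± 3.63) overlapped each other in turn. Ier3, Jund and Junb had means between 8.54 and 10.7, and Jund reached 15.4 in replicate 1, above the lowest Ier2 and Dusp1 libraries. Jun came next at 3.72 ± 0.575, and Atf3 and Fosb were last. In KO-labelled pachytene cells Fos stood apart at 64.1 ± 6.43, above Ier2, Egr1, Dusp1 and Junb, which overlapped in turn between means of 24.0 and 33.2. Ier3 followed at 20.5 ± 1.98, below all Junb libraries but within the range of Dusp1, and Jund, the leading gene of WT LZ cells, was 9th at 4.50 ± 0.977.

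At leptotene/zygotene, where the comparison asks what the labelled loss of Rnaseh1 changed at the start of meiotic prophase, 2 of the 10 genes rose in the KO-labelled cells and none fell. The risers were Egr1 and Ier3, a small stress-induced regulator of cell survival. Over all 15400 genes tested, 0.136% were called higher and 12.9% lower (limma, Benjamini-Hochberg adjusted p under 0.05). The median log2 change of the 10 genes was 0.93, beside -0.43 over all genes, and all 10 lay above that median. The 10 genes were chosen with earlier results of these data known, so these values are no test of the set against all genes.

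Egr1 was 5.67, 2.68 and 2.16 FPKM in the 3 WT LZ libraries and 6.35, 8.04 and 11.3 in the KO-labelled ones. Every KO-labelled value was above every WT value, and the log2 change of FPKM + 1 was 1.13 ± 0.30 (SE, limma adjusted p = 0.0313). No other of the 10 genes had groups that did not overlap, a pattern that 0.935% of all genes showed in the higher direction and 36.5% in the lower. Ier3 was 0.743, 2.73 and 0.204 in WT and 2.54, 3.94 and 3.91 in KO-labelled cells. WT replicate 2 reached above the lowest KO-labelled library, and the log2 change was 1.15 ± 0.35 (limma adjusted p = 0.0490). Its depth was low, at about 3 to 39 fragments in each WT library and 46 to 67 in each KO-labelled library.

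The AP-1 genes had wide spreads. Fos was 8.06, 1.77 and 1.02 FPKM in WT and 2.51, 12.8 and 22.6 in KO-labelled cells, and Junb was 4.66, 1.04 and 1.10 against 1.65, 5.89 and 12.9. In both genes KO-labelled replicates 2 and 3 exceeded all WT libraries, while KO-labelled replicate 1 lay below WT replicate 1. The log2 changes were 1.50 ± 0.62 for Fos (adjusted p = 0.111) and 1.13 ± 0.53 for Junb (adjusted p = 0.151), so neither passed the test. Fosb was 0.132, 0 and 0.438 in WT and 0.331, 1.48 and 1.88 in KO-labelled cells (log2 change 0.85 ± 0.35, adjusted p = 0.110), and Atf3 was listed at 0 in 2 WT libraries and 1 KO-labelled library. Atf3 otherwise read 0.371 in WT and 0.679 and 5.71 in KO-labelled cells, with about 154 fragments in the highest library and 20 in the next, and its log2 change was 1.01 ± 0.56 (adjusted p = 0.218).

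For Jun, an AP-1 subunit, WT libraries read 0.883, 0.525 and 0.444 FPKM and KO-labelled ones 0.359, 1.53 and 1.76. Ier2, a nuclear protein with an unsettled role, read 7.78, 3.24 and 3.84 in WT and 4.96, 8.68 and 13.6 in KO-labelled cells. Both overlapped between the genotypes, with log2 changes of 0.40 ± 0.34 (adjusted p = 0.424) and 0.74 ± 0.36 (adjusted p = 0.162). The remaining genes, Dusp1 and Jund, had negative values. Dusp1 read 8.33, 3.40 and 2.11 against 3.76, 1.87 and 3.45, and Jund 11.6, 5.33 and 4.46 against 3.35, 5.83 and 5.85, with log2 changes of -0.36 ± 0.41 (adjusted p = 0.558) and -0.37 ± 0.36 (adjusted p = 0.498). These were close to the median of all genes, and both turned to small positive values (0.13 and 0.15) once libraries were scaled to each other.

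**Figure D2:**
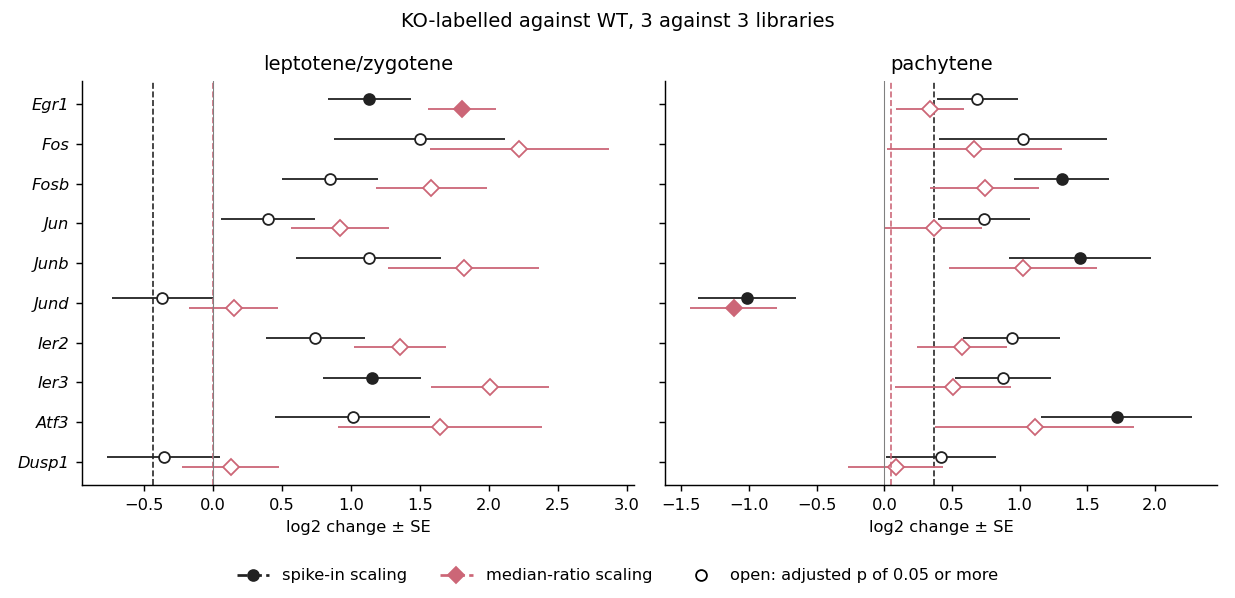
Log2 change of FPKM + 1 between KO-labelled and WT cells at leptotene/zygotene and at pachytene on the x axis, for each gene on the y axis, with bars for the standard error, black circles for spike-in scaling, red diamonds for median-ratio scaling, open symbols for adjusted p of 0.05 or more and dashed lines at the medians of all 15400 genes tested. With spike-in scaling all 10 genes lay to the right of the median of -0.43 at leptotene/zygotene, where Dusp1 and Jund were below 0 and turned positive with median-ratio scaling, and at pachytene Jund alone lay to the left of the median of 0.37.

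Setting all libraries to a common level by the median of their gene ratios brought the median change of all genes at LZ, -0.43, close to 0 and that of the 10 genes from 0.93 to 1.61. Egr1 then differed by 1.80 and was the single gene of the 10 that was called, beside 0.383% of all genes called higher. Egr1, Ier2 and Ier3 had groups that did not overlap, all higher, beside 9.12% of all genes higher and 9.11% lower. With the authors' scaling, the call of 2 genes fell to 0 when any 1 of the 3 WT LZ libraries or KO-labelled LZ replicate 2 or 3 was left out (2 to 5 genes at an unadjusted p under 0.05 in limma). In those fits only 0 to 11 of all 15400 genes were called higher, beside 21 with all libraries. Leaving out KO-labelled LZ replicate 1 gave 5 (Egr1, Fos, Fosb, Ier3 and Junb), beside 74 of all genes called higher. Leaving out any 1 pachytene library gave 1, Egr1, beside 13 to 23 of all genes.

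Most of the 10 genes ranked the libraries alike within each LZ group. In WT LZ cells replicate 1 had the highest value for 8 of the 10, and its summed level was 48.3 FPKM against 20.7 and 15.8 in replicates 2 and 3. In KO-labelled LZ cells replicate 1 had the lowest value for 9 of the 10 and replicate 3 the highest for 8, with sums of 25.8, 50.8 and 83.0. As a share of all FPKM in a library, the 10 genes held 54.5, 25.8 and 25.9 FPKM in each 1000000 FPKM in WT LZ cells and 60.0, 106 and 162 in KO-labelled LZ cells, so by share all KO-labelled libraries exceeded all WT libraries.

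Markers of Sertoli cells, the somatic nurse cells of the seminiferous tubule, followed the same order of libraries for 7 of 9 genes in both LZ groups, and Fshr and Dhh did not. The FPKM sum over all genes had this order too. It was 885259, 803987 and 609831 in WT LZ and 430372, 477243 and 512468 in KO-labelled LZ cells. The order is therefore not particular to these markers, and the share of all genes that have it was not counted. The sum of the 9 Sertoli markers, most of it Clu, was 648, 337 and 264 FPKM in WT LZ cells and 314, 528 and 780 in KO-labelled LZ cells, highest and lowest in the same libraries as the 10 genes. All 9 were above 0 in every library. Wt1, a Sertoli transcription factor, was 7.23, 3.33 and 3.02 in WT and 3.20, 5.73 and 11.2 in KO-labelled cells. The Leydig sums were 15.1, 19.9 and 4.07 in WT LZ and 90.3, 6.01 and 12.4 in KO-labelled LZ cells. The highest sum, in the KO-labelled library in which the 10 genes were lowest, was mostly Insl3 (67.97 FPKM). Cyp17a1, Cyp11a1, Hsd3b1, Hsd17b3 and Lhcgr were also highest in that library. Star and Nr5a1 instead rose from KO-labelled LZ replicate 1 to replicate 3, as the sum of the 10 genes did, and Hsd3b6 was highest in replicate 3. In WT LZ cells Star and Nr5a1 were highest in replicate 2, unlike the 10 genes. The Leydig markers therefore did not share an order of libraries. Between the genotypes at LZ, none of the 9 Sertoli and none of the 9 Leydig markers was called (limma), beside 0.136% of all genes called higher and 12.9% lower. Their median log2 changes were 0.42 and 0.31, both above the -0.43 of all genes. With libraries scaled to each other the medians were 1.00 and 0.77, beside one close to 0 over all genes. Germ cell markers of other stages also differed at LZ. Spermatid markers summed to 791 to 5506 in KO-labelled and 14650 to 31823 in WT cells, with 5 of 8 called lower, and pachytene markers to 1366 to 1657 and 2430 to 3575, with 5 of 9 called lower. Spermatogonial markers summed to 248 to 283 and 339 to 678, with 1 of 9 called lower. The part of these marker sets in the LZ result was not tested.

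**Figure D3:**
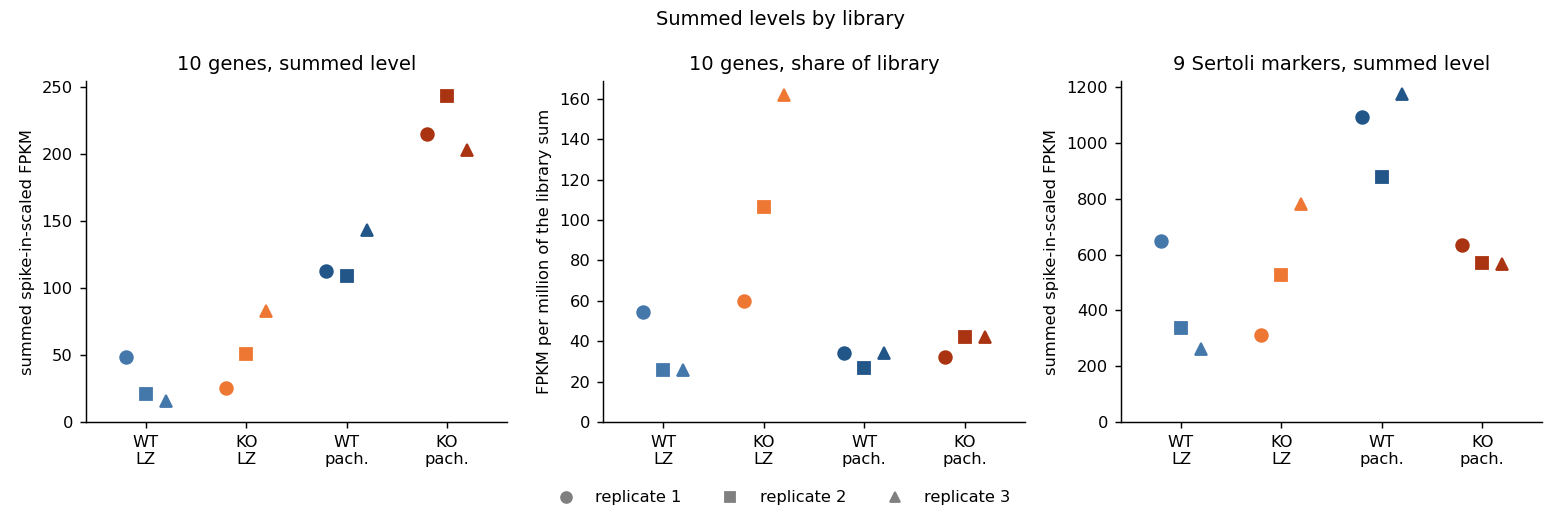
Summed FPKM of the 10 genes (left), their share of all FPKM in the library (middle) and summed FPKM of the Sertoli markers (right) on the y axes, starting at 0, by group on the x axes, with a symbol for each replicate. The left and right sums had the same highest and lowest library in each LZ group, as did the sum over all genes. At pachytene KO-labelled libraries were above WT for the 10 genes (203 to 243 against 109 to 143) and below WT for the sum of the Sertoli markers.

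At pachytene 3 of the 10 genes rose in the KO-labelled cells, Atf3, Junb and Fosb, and 1 fell, Jund. Among all genes 24.6% were called higher and 14.3% lower, so shares of this size were common in this comparison. The median log2 change of the 10 genes was 0.91, beside 0.37 over all genes, and 9 of 10 lay above that median. Groups did not overlap for 7 of the 10 in the higher direction and for 1 in the lower, beside 36.4% and 18.0% of all genes.

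Atf3 read 0.545, 2.60 and 3.03 FPKM in WT pachytene libraries and 6.63, 10.4 and 8.17 in KO-labelled ones. Fosb read 1.26, 0.215 and 1.81 against 3.84, 4.36 and 3.53, and Junb 6.89, 6.26 and 12.5 against 25.4, 23.1 and 23.4. In all 3 genes the lowest KO-labelled library was above the highest WT library. The log2 changes were 1.72 ± 0.56 for Atf3 (adjusted p = 0.0318), 1.31 ± 0.35 for Fosb (adjusted p = 0.0178) and 1.45 ± 0.53 for Junb (adjusted p = 0.0454). The depth behind the smaller ones was low: Fosb rested on about 3 to 23 fragments in each WT library and 26 to 27 in each KO-labelled library, and Atf3 on 3 to 20 and 24 to 33.

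Jund went the other way. Its level was 15.4, 6.99 and 9.14 FPKM in WT pachytene cells and 4.03, 5.62 and 3.84 in KO-labelled ones, from about 41 to 72 and 12 to 15 fragments. All KO-labelled values were below all WT values, and the log2 change was -1.01 ± 0.36 (adjusted p = 0.0432). It was no longer called when any 1 of the 6 pachytene libraries, WT LZ replicate 2 or KO-labelled LZ replicate 3 was left out. Scaling libraries to each other brought the median of all genes from 0.37 to 0.052 and that of the 10 genes from 0.91 to 0.54. Jund was then at -1.11, the single call among the 10 genes, beside 9.63% of all genes called lower and 3.56% called higher.

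Fos, Egr1, Ier2 and Ier3 had groups apart and log2 changes that did not pass. Fos, the most abundant of the 10, read 23.9, 29.1 and 42.4 FPKM in WT and 58.3, 71.0 and 63.1 in KO-labelled cells (1.02 ± 0.62, adjusted p = 0.185). Egr1 read 17.5, 16.8 and 17.4 against 31.7, 24.3 and 29.6 (0.69 ± 0.30, adjusted p = 0.0786). The SD of its WT libraries was 0.402, the narrowest relative to the mean of the 10 genes in any group, and each lay below all KO-labelled ones. Ier2 read 13.7, 20.8 and 15.9 against 31.2, 41.0 and 27.3 (0.94 ± 0.36, adjusted p = 0.0515), and Ier3 12.7, 9.82 and 9.70 against 18.8, 20.1 and 22.7 (0.88 ± 0.35, adjusted p = 0.0619). These 4 genes missed the threshold across all genes although their libraries separated by genotype on the spike-in scale. After scaling libraries to each other, Egr1 and Ier2 overlapped. On that scale groups did not overlap for 5 of the 10 genes in the higher direction and 1 in the lower, beside 23.0% and 24.0% of all genes.

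Jun and Dusp1 overlapped between the genotypes. Jun read 4.21, 3.09 and 3.87 FPKM in WT and 9.19, 8.58 and 3.92 in KO-labelled cells, where replicate 3 stood at the WT level (0.74 ± 0.34, adjusted p = 0.0919). Dusp1 read 17.0, 13.7 and 27.4 against 25.9, 34.6 and 17.7, with both groups spanning much the same range (0.42 ± 0.41, adjusted p = 0.405). The 10 genes summed to 203 to 243 FPKM in KO-labelled pachytene cells against 109 to 143 in WT, and marker sums differed beside them. The Sertoli sum, most of it Clu, was 566 to 635 against 878 to 1176, with 1 of 9 markers called lower and none higher. Leydig sums overlapped, at 1381 to 5521 against 2349 to 8745, with 2 of 9 called higher and none lower. Blood sums also overlapped, at 530 to 690 against 175 to 915, with 1 of 9 tested called higher and none lower. The 1 endothelial marker tested was called higher. Over all genes 24.6% were called higher and 14.3% lower. Peritubular markers summed to 184 to 236 against 576 to 737 (6 of 9 called lower), and spermatogonial markers to 378 to 602 against 647 to 790 (7 of 9 called lower, 1 higher). Spermatid markers summed to 1738 to 9448 against 37190 to 45128 (8 of 8 called lower), and pachytene markers to 50579 to 80197 against 28838 to 37650 (5 of 9 called higher). The part of these marker sets in the result was not tested.

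The number of pachytene calls depended on the libraries and the scale. Without WT pachytene replicate 2, KO-labelled pachytene replicate 1 or KO-labelled pachytene replicate 2, none of the 10 was called (limma, 4 to 6 at an unadjusted p under 0.05), and without WT pachytene replicate 1 only Fosb was. Calls over all 15400 genes fell in the same fits. In that order 797, 300, 370 and 933 were called higher, beside 3784 with all libraries. Those called lower were 1382, 1071, 978 and 1232, beside 2196. Junb was also lost without WT LZ replicate 2 or KO-labelled pachytene replicate 3. In units of share of all FPKM the 10 genes held 34.1, 26.9 and 34.2 FPKM in each 1000000 FPKM in WT pachytene and 32.1, 42.0 and 42.3 in KO-labelled pachytene cells, where the groups overlapped.

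**Figure D4:**
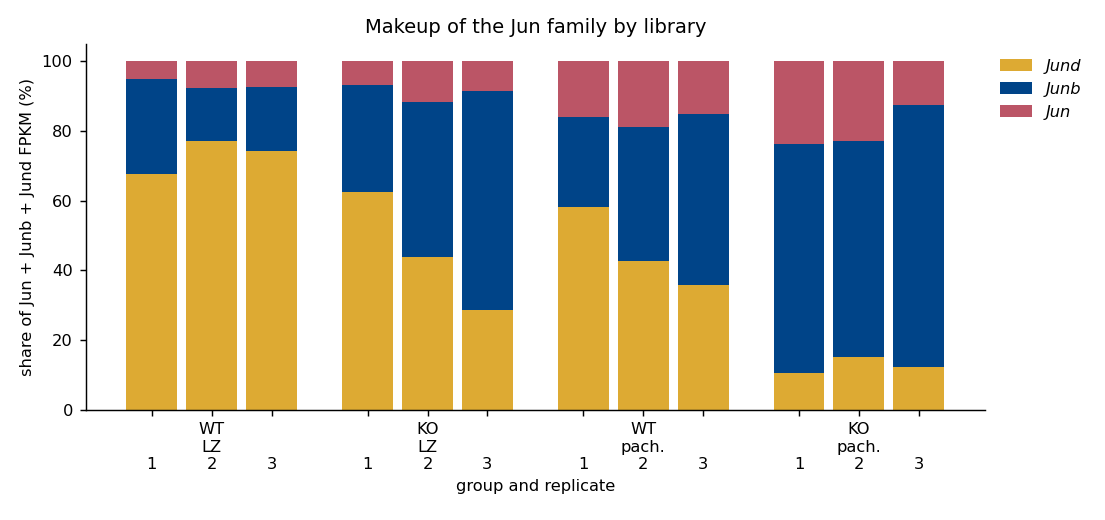
Share of the summed Jun, Junb and Jund FPKM held by each gene on the y axis, as stacked bars from 0 to 100%, in each library on the x axis. Jund held most of the sum in the WT leptotene/zygotene libraries and 10.4 to 15.1% in the KO-labelled pachytene libraries.

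The makeup of the Jun family, measured per length and free of library scale, also differed between the groups. Jund made up 67.8, 77.2 and 74.2% of the summed Jun, Junb and Jund FPKM in WT LZ cells, and 62.5, 44.0 and 28.5% in KO-labelled LZ cells. Every KO-labelled library had a lower share than every WT library. At pachytene it made up 58.1, 42.8 and 35.9% in WT and 10.4, 15.1 and 12.3% in KO-labelled cells, again with no overlap. Junb held the larger part in the latter group, 67.6 ± 6.76% (SD, n = 3) against 37.7 ± 11.5% in WT pachytene cells. The share of Jun itself overlapped between the genotypes at both stages. With 3 libraries against 3, an exact permutation test cannot give a p below 0.1, so no p is attached to these shares. The Fos and Fosb pair was dominated by Fos in every library, with 69.9 to 100% of their sum, and Fosb held 5.30 to 6.17% in KO-labelled pachytene cells.

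The difference between the genotype effects at the stages, a test of whether the KO-labelled change at pachytene exceeded that at LZ, called none of the 10 genes (limma, 0 at an unadjusted p under 0.05), beside 34.9% of all genes called higher and 3.49% lower. Values ran from -0.65 ± 0.52 for Jund to 0.78 ± 0.58 for Dusp1. The median of the 10 was 0.26, beside 0.72 over all genes, and 1 of 10, Dusp1, lay above that median. After scaling libraries to each other all 10 values were negative, with a median of -0.82 beside one close to 0 over all genes, and Egr1 was called at -1.47, beside 4.41% of all genes called lower and 2.42% called higher.

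From leptotene/zygotene to pachytene in WT cells, 8 of the 10 genes rose on the spike-in scale, beside 80.9% of all genes, and none fell, beside 0.487%. Their median log2 change was 1.65 beside 1.64 over all genes, and 5 of 10 lay above it. The stage comparisons share their libraries with the genotype comparisons above, so they are not independent of them. Fos had the highest change, 3.11 ± 0.62 (adjusted p = 4.01e-04), from 3.62 ± 3.87 to 31.8 ± 9.55 FPKM. Ier3 followed with 2.55 ± 0.35 (adjusted p = 1.63e-05), then Egr1 with 2.1 ± 0.30 (adjusted p = 2.18e-05) and Dusp1 with 1.96 ± 0.41 (adjusted p = 5.75e-04). Groups did not overlap for 8 of the 10, all in the higher direction, beside 83.0% of all genes higher and 0.864% lower. Fosb (0.75 ± 0.35, adjusted p = 0.0619) and Jund (0.54 ± 0.36, adjusted p = 0.184) did not pass. The call of Atf3 was lost without any 1 WT LZ library or WT pachytene replicate 2 or 3, and that of Junb without WT pachytene replicate 3.

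In KO-labelled cells 9 of the 10 rose, beside 76.8% of all genes called higher and 2.83% lower, and Jund, at -0.11 ± 0.36 (adjusted p = 0.786), did not pass. Dusp1, which overlapped between genotypes at each stage, had the highest stage change, 2.74 ± 0.41 (adjusted p = 2.25e-05). Its LZ libraries read 1.87 to 3.76 FPKM and its pachytene libraries 17.7 to 34.6. Fos changed by 2.63 ± 0.62, Ier3 by 2.28 ± 0.35, Atf3 by 2.05 ± 0.56 and Fosb by 1.21 ± 0.35. The median of the 10, 1.93, was below that of all genes, 2.29, and 2 of 10 lay above it, Dusp1 and Fos. Groups did not overlap for 9 of the 10, all in the higher direction, beside 75.9% of all genes higher and 2.84% lower.

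**Figure D5:**
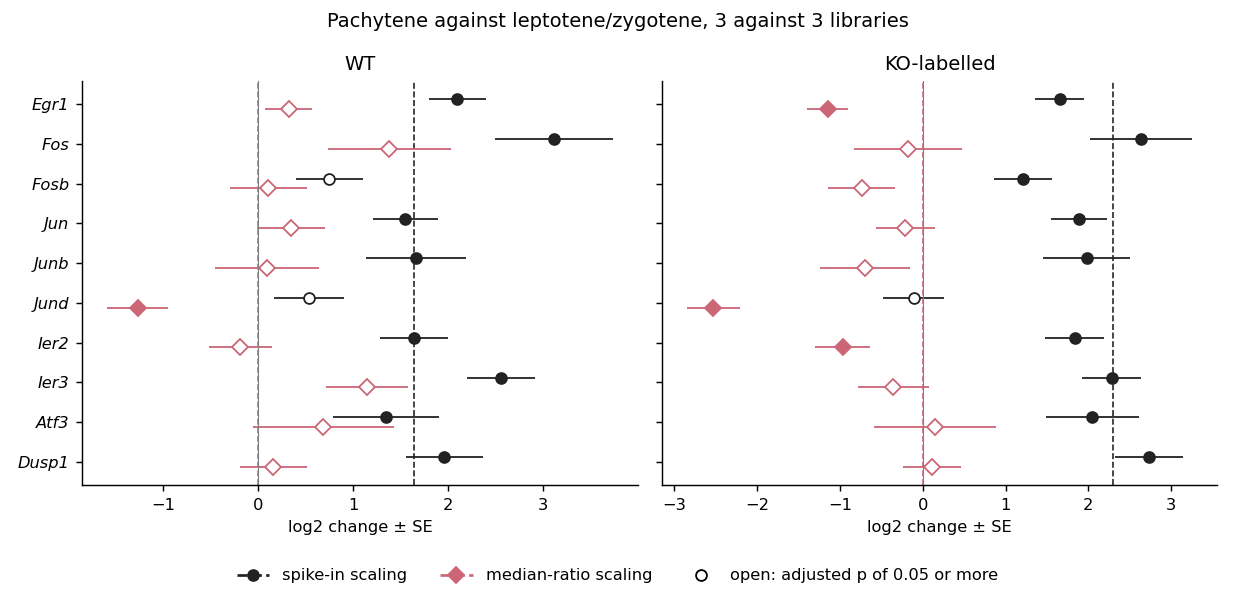
Log2 change of FPKM + 1 from leptotene/zygotene to pachytene in WT and in KO-labelled cells on the x axis, for each gene on the y axis, with bars, circles, diamonds, open symbols and dashed lines as in the plot of genotype changes. With spike-in scaling most genes lay near the medians of 1.64 and 2.29 and Jund lay near 0; relative to those medians 5 of 10 genes in WT and 8 of 10 in KO-labelled cells were lower.

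With libraries scaled to each other, none of the 10 genes was called higher over the stages. In WT cells 8 of 10 changes stayed above 0, and in KO-labelled cells 2 of 10 did. The largest WT changes, 1.38 ± 0.65 for Fos (limma adjusted p = 0.117) and 1.14 ± 0.43 for Ier3 (adjusted p = 0.0534), did not pass. Ier3 was called higher in WT cells with quantile normalisation. After scaling libraries to each other, Jund fell in WT cells by 1.27 on the log2 scale and was the only one of the 10 that was called, beside 17.7% of all genes called lower and 20.4% called higher. In KO-labelled cells Jund fell by 2.53, Egr1 by 1.15 and Ier2 by 0.97, and no other was called, beside 29.3% of all genes called lower and 31.7% called higher. On this scale groups did not overlap for Jun (higher) and Jund (lower) in WT cells, beside 26.9% and 26.1% of all genes, and for Jund, Egr1 and Ier2 (all lower) in KO-labelled cells, beside 34.3% of all genes higher and 29.3% lower. The stage direction of Egr1 and Ier2 in KO-labelled cells therefore depended on the scale: higher per spike-in and lower relative to other genes.

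Among themselves, Ier2, Egr1 and Jun stayed closest to the mean profile of the 10 over the 12 libraries, with root mean square differences of 0.21, 0.26 and 0.28 in log2 units, and Jund was farthest at 1.12. The closest pair was Egr1 and Ier2, at 0.32. Of 9195 other genes with a mean of at least 5 FPKM, Zfp36, which encodes an mRNA-destabilising protein and is itself an immediate early gene, was nearest to the mean profile at 0.24, against a median of 0.83 over these genes. The next were Rab43 at 0.28 and Rab3gap1, Hhex and Thada at 0.31, followed by St3gal5 at 0.32. Zfp36 averaged 5.08 ± 2.88 FPKM in WT LZ, 7.97 ± 3.68 in KO-labelled LZ, 13.4 ± 3.23 in WT pachytene and 32.5 ± 3.23 in KO-labelled pachytene cells (SD, n = 3).

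Of 44 other immediate early genes listed, 38 could be tested, and their counts between genotypes are read beside the shares of all genes called higher and lower, 0.136% and 12.9% at LZ and 24.6% and 14.3% at pachytene. At LZ 1 rose and 2 fell, with a median of -0.18. The riser was Dusp6, a phosphatase specific for ERK kinases (0.881 ± 0.596 to 3.47 ± 1.36 FPKM, log2 change 1.25 ± 0.39, adjusted p = 0.0492). Arc, a gene best known from neurons, fell from 16.7 ± 7.41 to 4.61 ± 2.46, and the nuclear receptor gene Nr4a1 fell from 3.29 ± 0.445 to 0.842 ± 0.669. At pachytene 4 rose and 4 fell, with a median of 0.21, below the background share for risers and near it for those that fell. Zfp36 rose by 1.24 ± 0.37 (adjusted p = 0.0248) and Mcl1, a survival factor of the Bcl2 family, from 91.5 ± 11.4 to 175 ± 23.7. Ctgf, a secreted matrix protein, fell from 27.5 ± 9.40 to 5.74 ± 0.932, and Dusp2, a further MAP kinase phosphatase, from 5.60 ± 0.432 to 2.09 ± 1.06. Over the stages 27 of 38 rose in WT and 24 in KO-labelled cells and none fell, beside 80.9% and 76.8% of all genes called higher, with medians of 1.25 and 1.33, below those of all genes. After scaling libraries to each other, 2 rose and none fell at LZ, none rose and 1 fell at pachytene, and over the stages 5 rose and 7 fell in WT and 4 rose and 14 fell in KO-labelled cells. On that scale 0.383% of all genes were called higher and 0.688% lower at LZ, and 3.56% and 9.63% at pachytene. Over the stages the shares were 20.4% and 17.7% in WT and 31.7% and 29.3% in KO-labelled cells.

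Of 24 genes for the kinases and factors that act on immediate early promoters, none rose and 2 fell at LZ between the genotypes, beside 0.136% and 12.9% of all genes. They were Map2k7, a kinase of the JNK branch (20.5 ± 4.97 to 8.74 ± 1.15 FPKM), and Rps6ka4, a histone kinase (2.04 ± 0.820 to 0.526 ± 0.140). At pachytene 6 rose and 2 fell, beside 24.6% and 14.3% of all genes, so these counts were near or below the background and are not a result about the list. Among the risers were the JNK gene Mapk10 (48.9 ± 14.4 to 113 ± 22.2), the SRF coactivator Mkl1 (17.1 ± 3.05 to 37.3 ± 12.7) and Crem, whose germ-cell forms are known regulators of spermatid genes (578 ± 122 to 953 ± 214). Those that fell were the kinase genes Rps6ka3 (6.71 ± 3.16 to 1.79 ± 1.62) and Map2k4 (10.8 ± 1.47 to 4.88 ± 1.79). After scaling libraries to each other, none was called at LZ, beside 0.383% of all genes called higher and 0.688% lower. At pachytene 1 rose and 1 fell on that scale, beside 3.56% and 9.63%.

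Of 9 testable genes for other partners of AP-1 proteins, none was called at LZ, where Atf4 was 38.5 ± 10.4 and 38.2 ± 13.0 FPKM in WT and KO-labelled cells. At pachytene 2 rose, beside 24.6% of all genes, Atf4 (200 ± 42.3 to 337 ± 20.7) and Atf2 (96.5 ± 25.4 to 153 ± 28.5). Heat shock genes, which respond to stress on proteins rather than to growth signals, gave 0 risers and 1 that fell at LZ among 12 tested, beside 0.136% and 12.9% of all genes, the cochaperone Dnajb1 (184 ± 31.0 to 82.0 ± 13.7). At pachytene 4 rose and 2 fell, beside 24.6% and 14.3% of all genes, Bag3 among the former (46.0 ± 8.82 to 103 ± 35.2) and Hspe1 among the latter (775 ± 205 to 264 ± 82.0). After scaling libraries to each other, no gene of either list rose or fell at LZ, beside 0.383% of all genes called higher and 0.688% lower. At pachytene 3 heat shock genes fell and none rose on that scale, beside 9.63% of all genes called lower and 3.56% higher.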

How the data were processed

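The deposited table holds FPKM per gene, which the authors had scaled by ERCC spike-ins, as the name they gave it says; the scaling formula and the gene annotation are not given in the sources used here. TopHat2 2.1.1, Cufflinks 2.2.1 and build mm9 are named in the submitters' processing notes. 4 columns of the table carry no sample name and were not used. Depth is unknown; fragments were estimated from ratios of low values and the longest GENCODE transcript and are approximate.

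log2(FPKM + 1) was fitted in limma 3.58.1 (R 4.3.3) with 1 mean per group over 12 libraries, a variance trend and Benjamini-Hochberg adjustment over the 15400 genes at 1 or more in at least 3 libraries, and called at an adjusted p under 0.05. This scale understates changes of low genes. The fit was tested on simulated data. The members and lists were chosen with earlier results of these data known. Named genes were the 10 members, up to 6 called genes of each other list with the largest changes (the 2 most abundant where none was called), and the 6 nearest profiles. Alternatives changed the pseudocount, filter, scaling, fit, replicate block and libraries.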

Additional observations from a re-analysis of the deposited data

Results flagged for a closer look

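None of the 10 immediate early genes passed the test of a different genotype effect at the stages (0 at an unadjusted p under 0.05), and genes of the other lists did, by the test of the difference itself (limma, adjusted p under 0.05). The values are the log2 change between KO-labelled and WT cells at pachytene minus that at leptotene/zygotene, beside a median of 0.72 over all genes, of which 34.9% were called higher and 3.49% lower. Among other immediate early genes the differences were -2.90 for Ctgf, 2.70 for Arc, 1.78 for Nr4a1, -1.56 for Sgk1, 1.44 for Per1 and 1.06 for Mcl1. Among the kinases and factors acting on these promoters they were 1.67 for Map2k7, 1.62 for Mkl1, 1.60 for Mapk10, 1.46 for Crem, 1.29 for Atf2 and 1.21 for Srf. Heat shock genes gave 2.17 for Bag3, 1.93 for Dnajb1, 1.26 for Dnaja1, 1.11 for Hsp90aa1, 1.08 for Hspa5 and 1.05 for Hsph1. After median-ratio scaling 2 of these 18 genes were called, Ctgf at -3.75 and Sgk1 at -2.30, beside 2.42% of all genes called higher and 4.41% called lower.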

How the results depend on the processing

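The count of called genes among the 10 moved over the stages with the scale, and between genotypes also with the pseudocount, the filter, the fit and single libraries. In WT over the stages 8, all higher, became 1 lower with median-ratio scaling and 1 lower with equal library sums. With quantile normalisation they became 1 higher and 1 lower. With 1 library left out 6 to 9 were called, all higher. In KO-labelled cells 9, all higher, became 3, 4 and 2 with these scalings in the same order, all lower. With any 1 library left out 9 were called there, all higher. Of all 15400 genes these scalings called 3146, 2103 and 3077 higher and 2730, 3829 and 2768 lower in WT cells. In KO-labelled cells they called 4878, 2881 and 4941 higher and 4506, 6333 and 4104 lower. Between genotypes at LZ 2 became 0 with a pseudocount of 5, 0 with no filter, 0 with a fit of only the groups compared, 1 with median-ratio scaling and 1 without the variance trend (0 to 5 with 1 library left out). Limma gave 3 genes at an unadjusted p under 0.05 in each of the settings at 0. In those settings only 7 of 15400, 3 of 20314 and 0 of 15400 genes were called higher over all genes, so almost no gene could be called. At pachytene 4, of which 3 were higher and 1 lower, became 0 with a pseudocount of 0.1, 0 with equal sums and 0 with quantile normalisation. They became 1 higher with no filter and 1 lower with median-ratio scaling. With a pseudocount of 5 and with a fit of only the groups compared they became 8, in each 7 higher and 1 lower. With 1 library left out 0 to 6 were called. In the settings at 0, limma gave 4, 1 and 4 at an unadjusted p under 0.05. Of all 15400 genes 2454, 42 and 455 were called higher in the settings at 0, beside 3784 in the main fit. The settings at 8 called 5179 and 3338 higher. For the difference between the genotype effects 0 became 1 with median-ratio scaling and 1 with equal sums, both lower, beside 679 and 861 of all 15400 genes called lower. A filter of 5 left 8 of the 10 genes. Of 1080 single-gene results 889 kept direction and side of the threshold, 97 were no longer called, 31 became called and 63 changed sign; beyond scaling, which defines a change relative to other genes, the cause was not tested. With median-ratio scaling the KO-labelled stage change was -1.15 for Egr1, -0.18 for Fos, -0.74 for Fosb, -0.21 for Jun, -0.70 for Junb, -0.97 for Ier2 and -0.36 for Ier3, and the WT stage change -1.27 for Jund and -0.19 for Ier2. The genotype change at LZ was 0.15 for Jund and 0.13 for Dusp1, and the difference between genotype effects -0.84 for Fosb, -0.56 for Jun, -0.79 for Junb, -0.78 for Ier2, -0.54 for Atf3 and -0.045 for Dusp1. With equal sums the KO-labelled stage change was -1.64 for Egr1, -0.75 for Fos, -0.94 for Fosb, -0.56 for Jun, -1.20 for Junb, -1.48 for Ier2, -0.83 for Ier3, -0.32 for Atf3 and -0.41 for Dusp1, and the WT stage change -0.13 for Junb, -1.40 for Jund, -0.42 for Ier2 and -0.089 for Dusp1. The genotype change was 0.23 for Jund and 0.20 for Dusp1 at LZ and -0.11 for Dusp1 at pachytene, and the difference between them -0.97 for Fosb, -0.70 for Jun, -1.07 for Junb, -1.06 for Ier2, -0.73 for Atf3 and -0.32 for Dusp1. With quantile normalisation the KO-labelled stage change was -0.89 for Egr1, -0.11 for Fos, -0.16 for Fosb, -0.34 for Junb and -0.74 for Ier2, and the WT stage change -0.097 for Fosb, -1.13 for Jund and -0.0024 for Ier2. The genotype change at LZ was 0.15 for Jund and 0.14 for Dusp1, and the difference -0.061 for Fosb, -0.59 for Junb and -0.74 for Ier2. The difference was also 0.0059 for Fos and 0.24 for Ier3 with a pseudocount of 5, -0.16 for Fosb with a pseudocount of 0.1, and with 1 library left out -1.26 to 0.11 for Fos, -0.31 to 0.88 for Junb, -0.13 to 0.51 for Ier2 and -0.73 to 0.089 for Ier3, while the genotype change at LZ ran from -0.60 to 0.0014 for Jund and from -0.70 to 0.087 for Dusp1. The sign changed without WT LZ replicate 1 (Junb, Ier2, Jund, Dusp1), WT LZ replicate 3 (Ier3), KO-labelled LZ replicate 1 (Junb, Ier2) or KO-labelled LZ replicate 3 (Fos).

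Same-numbered replicates deviated together with correlations of -0.17 to 0.26, and in no comparison were all 3 above 0.1, so the numbers were not taken to pair the samples. With the replicate block 8 genes were called in WT over the stages, 9 in KO-labelled cells, 2 at LZ, 3 at pachytene (Jund no longer) and 0 for the difference.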
